A study of Homo sapiens with 4 samples.

Results

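Epithelial cells are held together by adherens junctions, tight junctions and desmosomes, and 39 genes of these junctions, of apical-basal polarity and of the programme that maintains or dissolves them are described here in BRAF inhibitor resistant colon cancer cells. The 39 genes were a named list. They were 4 adherens and adhesion genes, 13 tight junction genes, 4 genes of polarity and apical membrane supply, 8 desmosome genes, 5 epithelial regulators, the matriptase protease with its inhibitor, and 3 mesenchymal genes. Each gene was read from the Affymetrix probe set with the highest mean over 4 arrays among probe sets that name that gene alone. Of the 39, 36 had such a probe set, out of 19775 genes on the array, and 35 reached the filter value of 5.73 on the log2 scale, the overall median of the table, on at least 1 array, out of 13651 genes that did. SNAI2 stayed below that value on all 4 arrays. CTNND1 and ESRP2 were represented only by probe sets that name several genes, and no probe set used here named F11R, so these 3 genes have no value.

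The arrays came from HT29 and Colo205, established colon cancer cell lines, and from HT29RC and Colo205RC, derivatives that had acquired resistance to PLX4720 during culture in rising drug concentrations. PLX4720 is an inhibitor of the BRAF kinase, and the study asked how the derivatives differ in expression from their parents. Each of the 4 states was measured on 1 array, all from cells in medium with 10% serum, and the derivatives had spent 24 h without drug. The series' design text speaks of resistant clones without saying whether each derivative came from 1 clone. The drug concentrations, and whether the parents were handled alongside, are likewise unstated. A difference within a line therefore has no replicate and no test, and a p-value over both lines rests on 2 pairs, whose spread may also be technical.

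Adherens junctions join cells through E-cadherin, which is tied to actin by catenins. Tight junctions seal the space between cells: claudins and occludin span the membrane, and zonula occludens proteins and cingulin form the plaque beneath. Desmosomes anchor keratin filaments to cadherins of their own, the desmogleins and desmocollins, through plakoglobin, plakophilins and plakins. In colon epithelium all of these are present, and transcription factors such as ZEB1 and SNAI2 (Slug) are known to repress them when cells turn mesenchymal.

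The array medians lay between 5.70 and 5.75. The 24 poly-A spike controls, RNAs added to the sample before labelling, were lower on the resistant array by a median of 0.43 in HT29 and 0.72 in Colo205. The signal of ACTB probe sets at the 3' end exceeded that at the 5' end by 2.77 in HT29 and 2.40 in HT29RC, and by 2.88 in Colo205 and 3.13 in Colo205RC, all on the log2 scale. The part of either in the differences below was not tested. All 11 markers of colon epithelium reached the filter value on at least 1 array, and 5 of them were 2-fold or more higher in resistant HT29 and 2 in resistant Colo205 (KRT8, KRT18, KRT19, KRT20, CDX1 and CDX2 of these markers are also on the further gene lists). Of markers of other cell types, 3 of 8 fibroblast, 4 of 7 measured leukocyte and 2 of 7 endothelial genes stayed below it on every array. Their mean log2 levels ran from 5.43 to 5.76, from 5.11 to 5.29 and from 5.43 to 5.96, against 10.38 to 11.54 for colon epithelium, which read 10.38 in HT29, 11.54 in HT29RC, 10.48 in Colo205 and 10.81 in Colo205RC. Of the colon markers CDH17 differed most in HT29, from 5.30 to 11.24, and weighs on the HT29RC mean. VIL1 and TSPAN8 differed there by 0.03 and -0.03. The probe sets of one gene differed in their resistant minus parental difference with an SD of 0.30 in each line, a measure of scatter within arrays that leaves out the spread between cultures.

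Desmosome genes stood higher in resistant HT29. Of the 8, 7 were higher than in the parent, and the median difference on the log2 scale was 0.93, against -0.01 over all 13651 genes. The 4 of the 39 listed genes that were 2-fold or more higher in HT29 all belong to the desmosome (PPL, DSC2, PKP3 and DSG2). Of all 13651 genes, 3.42% passed 2-fold upward in this line and 1.72% downward, where 0 of the 35 measured genes did. Markers of colon epithelium were higher in the same array, and their part in this was not tested. In Colo205 the same 8 genes had a median difference of 0.03, or -0.01 with arrays centred on their medians, with 4 higher and 4 lower. With arrays centred, and likewise with probe sets averaged, 2 genes passed 2-fold in HT29, PPL and DSC2. EVPL, at 0.01 in HT29 and counted above as higher, was at -0.02 with arrays centred.

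Promoter sequences were looked at for the letters that ZEB and SNAI factors are known to bind, since these factors are the repressors on the list. The RefSeq promoter table (GRCh38.p14) held 23 of the 39 genes, with 42 annotated starts. The motif searched was the E-box CAGGTG, on both strands, so that CACCTG on the printed strand also counts, in the 250 bases before each start. It was found before 16 of the 42 starts, or 38.1%, against 17.5% of 35116 starts in the table, and before at least 1 start of 14 of the 23 genes, against 20.6% of 27305 genes. Some starts of 1 gene lie so close that their windows overlap. A gene with more starts had more bases searched, and the 23 genes hold 42 starts, against 35116 for 27305 genes. The shares of genes are thus not at equal search length. All 4 desmosome genes in the table (DSP, DSC2, DSG2 and JUP) and all 3 polarity genes (CRB3, RAB25 and CDS1) had it, and 4 of 11 tight junction genes did (CLDN7, OCLN, TJP1 and TJP3). Of the remaining genes in the table, ELF3, SPINT1 and ZEB1 itself had it, and CTNNA1 and VIM did not. A loose form of the AP-1 motif, TGANTCA with N as any base, was searched as well. It stood before starts of 2 of the 23 genes, CLDN2 and CLDN4, or 8.70%, near the 8.06% of all genes.

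The sequences below were chosen after the matches were seen. They show DSP, DSC2 and DSG2, the desmosome genes of the table that were higher in both derivatives, CRB3 as the gene with the most matches, and CLDN3 as a claudin without one. Each is the 250 bases before the most upstream annotated start, 5' to 3' on the gene's strand, with the E-box in capitals:
DSP, chr6:7541421-7541670 (plus strand): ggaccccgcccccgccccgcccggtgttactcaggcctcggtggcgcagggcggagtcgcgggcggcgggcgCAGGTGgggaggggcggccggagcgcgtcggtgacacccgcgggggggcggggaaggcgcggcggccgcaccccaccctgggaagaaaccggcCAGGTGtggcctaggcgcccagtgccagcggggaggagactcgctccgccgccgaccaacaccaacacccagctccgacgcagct
DSC2, chr18:31102422-31102671 (minus strand): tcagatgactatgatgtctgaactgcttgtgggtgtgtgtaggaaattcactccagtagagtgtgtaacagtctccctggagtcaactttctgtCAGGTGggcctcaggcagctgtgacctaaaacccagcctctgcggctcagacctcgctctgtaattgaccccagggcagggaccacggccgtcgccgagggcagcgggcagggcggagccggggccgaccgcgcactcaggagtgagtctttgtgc
DSG2, chr18:31497927-31498176 (plus strand): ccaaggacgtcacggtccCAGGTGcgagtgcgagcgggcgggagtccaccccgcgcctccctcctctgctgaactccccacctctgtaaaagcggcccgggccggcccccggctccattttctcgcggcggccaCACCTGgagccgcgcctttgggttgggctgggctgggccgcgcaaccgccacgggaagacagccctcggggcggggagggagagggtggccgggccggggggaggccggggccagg
CRB3, chr19:6464021-6464270 (plus strand): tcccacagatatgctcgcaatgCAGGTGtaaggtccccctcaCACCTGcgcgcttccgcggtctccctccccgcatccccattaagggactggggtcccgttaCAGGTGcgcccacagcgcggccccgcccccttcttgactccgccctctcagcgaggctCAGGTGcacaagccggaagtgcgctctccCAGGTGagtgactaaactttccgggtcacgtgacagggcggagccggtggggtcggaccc
CLDN3, chr7:73770271-73770520 (minus strand): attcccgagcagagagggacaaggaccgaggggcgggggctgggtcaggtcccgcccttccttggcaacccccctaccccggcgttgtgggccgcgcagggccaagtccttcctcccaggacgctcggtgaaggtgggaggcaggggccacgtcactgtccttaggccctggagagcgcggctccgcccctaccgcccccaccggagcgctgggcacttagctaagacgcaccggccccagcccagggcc

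Counted from the start site, the E-boxes of DSP begin at -178 and -85, the single one of DSC2 at -156, and those of DSG2 at -232 and -116. CRB3 has 5, at -228, -208, -147, -89 and -60. These are matches of letters. The arrays do not show whether any factor binds there, and ZEB1 and SNAI2 read near or below the filter value in all 4 states.

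The desmosomal cadherins pointed the same way in both lines. DSC2, a desmocollin, read 10.47 in HT29 and 11.62 in HT29RC, and 8.83 and 9.27 in Colo205 and its derivative, so both HT29 arrays lay above both Colo205 arrays. Its difference was 1.15 in HT29, or 2.22-fold, and 0.43 in Colo205. All 4 of its probe sets were higher in the derivative of each line, between 1.15 and 1.52 in HT29 and between 0.43 and 0.80 in Colo205. DSG2, the desmoglein of simple epithelium, read 11.67 and 12.68 in HT29 and 11.96 and 12.43 in Colo205. Both parents were lower than both derivatives for this gene. The differences were 1.01 in HT29, or 2.01-fold, and 0.47 in Colo205, with the second probe set at 0.97 and 0.57. DSC2 and DSG2 are near neighbours on chromosome 18. The 30 measured genes around each of them had a median difference of 0.28 in HT29, with 2 of them 2-fold or more higher, and of 0.01 in Colo205. DSG2 is among the neighbours of DSC2, and DSC2 among those of DSG2, and each is 1 of these 2. The part of the neighbours' shift in both genes was not tested.

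Of the plaque proteins, PPL, PKP3 and JUP lay on opposite sides of 0 in the lines, a difference between lines that was not tested. PPL, periplakin, a plakin that links the plaque to keratin, read 9.18 in HT29 and 10.86 in HT29RC, which is 1.69 or 3.22-fold higher. It read 7.64 in Colo205 and 7.09 in Colo205RC, which lay on the other side at -0.56. The gene is read by 1 probe set, and its 30 neighbours on chromosome 16 had medians of -0.08 and 0.01. PKP3, a plakophilin, read 10.04 and 11.05 in HT29 and 9.97 and 9.77 in Colo205. The parents of both lines thus stood at nearly the same level, and resistant HT29 alone was apart. Its difference of 1.02 in HT29 came with a second, dimmer probe set at 0.37. JUP, plakoglobin, which also serves adherens junctions, had the same order: 9.87 and 10.72 in HT29 and 9.73 and 9.53 in Colo205.

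DSP, desmoplakin, the obligate plakin of the desmosome, read 11.20 and 11.92 in HT29 and 12.19 and 12.46 in Colo205. It was higher in both derivatives, by 0.72 and 0.26, and the 30 genes around it had a median of -0.37 in HT29. EVPL, envoplakin, the partner of periplakin in the cornified envelope, differed by 0.01 in HT29, where PPL differed most, and by 0.43 in Colo205. PKP2, the plakophilin that simple epithelia share with heart muscle, was the 1 gene of the group below 0 in HT29 before centring. It was at -0.27 there, within the probe set scatter of 0.30. In Colo205 it was at -0.38, where PPL, PKP3 and JUP were lower as well.

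**Figure D1:**
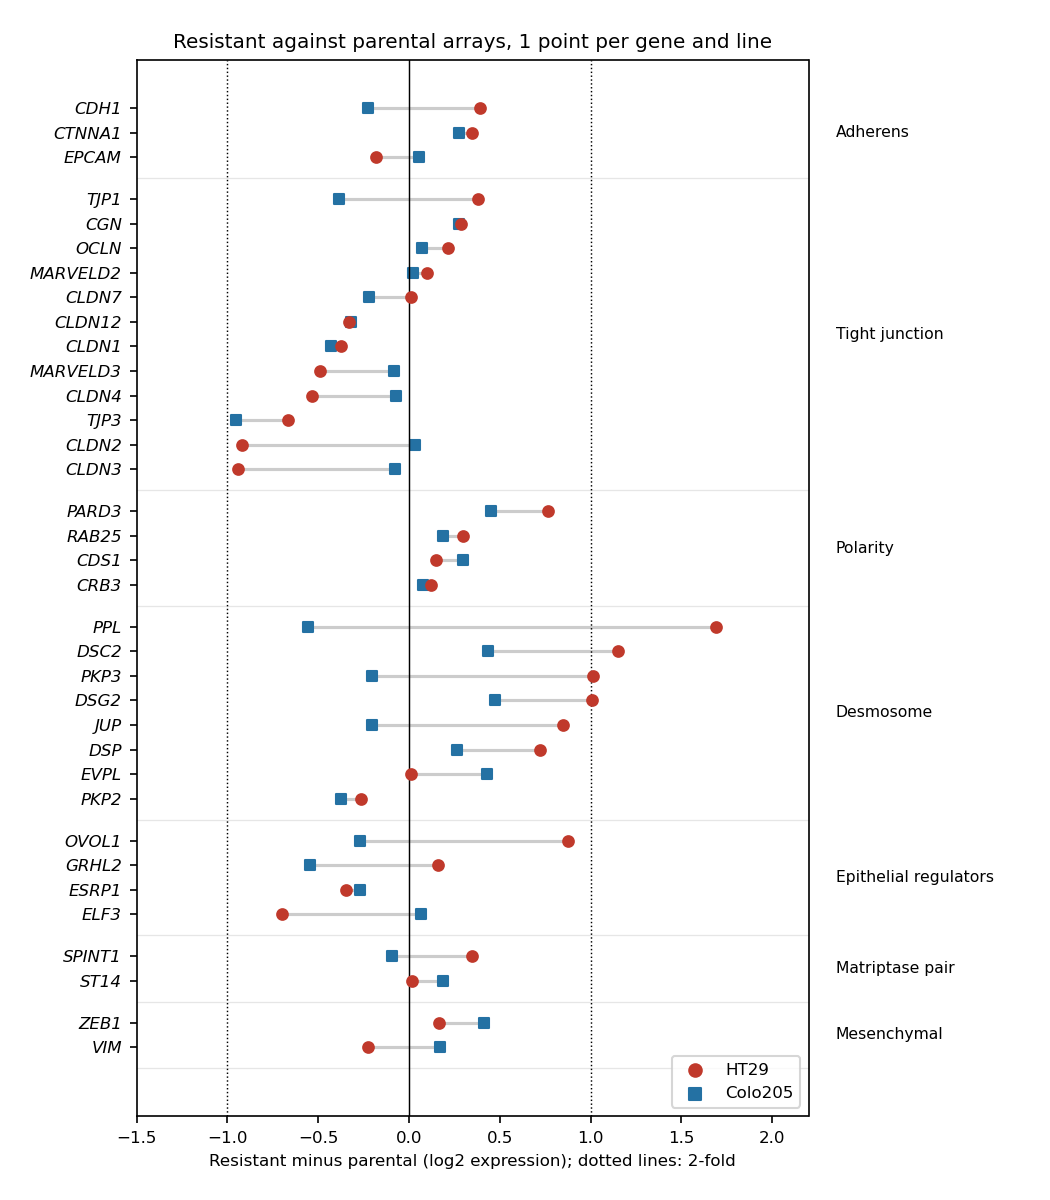
Resistant minus parental difference on the log2 scale for each of the 35 measured genes, grouped by role, with HT29 as circles and Colo205 as squares; each point is 1 array less 1 other and dotted lines mark 2-fold. In HT29 desmosome genes lie mostly to the right, up to 1.69 for PPL, and claudins mostly to the left, down to -0.94 for CLDN3, while no Colo205 point passes 2-fold.

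Tight junction genes were divided. Of the 12 measured, 7 were lower and 5 higher in resistant HT29, with a median of -0.35, and 8 were lower and 4 higher in resistant Colo205, with a median of -0.08. Some of these signs rest on differences near 0. With arrays centred on their medians, CLDN7 in HT29 was at -0.02, and CLDN2 and MARVELD2 in Colo205 were each at -0.01, so these fell to the lower side. None reached 2-fold in either line by the probe set used, and in Colo205 0 of all 35 genes did, against 0.908% of all genes for 2-fold or more higher and 2.51% for lower. The poly-A spike controls were lower in the same derivatives, as given above.

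Of the 7 that were lower in HT29, 5 were claudins. CLDN3, a barrier-forming claudin, read 9.32 in HT29 and 8.38 in HT29RC, and 9.07 and 9.0 in Colo205. Resistant HT29 was thus the lowest of the 4 arrays for this gene. The difference in HT29 was -0.94, or 1.92-fold lower, and its other probe set was at -1.01. CLDN2, the claudin that forms cation and water channels, read 10.48 and 9.56 in HT29, a difference of -0.92. It read 6.90 and 6.93 in Colo205, where parent and derivative differed by 0.03. CLDN4, which is often found with CLDN3, read 10.13 and 9.60 in HT29 and 9.24 and 9.17 in Colo205. Its difference of -0.53 in HT29 was not shared by a second, dimmer probe set, at 0.08. CLDN3 and CLDN4 lie close together on chromosome 7, and the 30 genes around them had medians of -0.16 and -0.17 in HT29. CLDN3 counts among the neighbours of CLDN4, and CLDN4 among those of CLDN3. CLDN12, on the same chromosome, was at -0.33, among 30 neighbours with a median of -0.46, and its difference of -0.32 in Colo205 stood among neighbours at -0.01. CLDN7, which binds EPCAM, was at 0.01 in HT29 and -0.22 in Colo205. The direction of CLDN1 depended on the probe set: the brighter gave -0.37 and -0.43 in the lines, and the dimmer gave 0.24 and 0.55.

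Among the scaffold proteins, TJP3 (ZO-3) was lower in both derivatives. It read 7.65 and 6.98 in HT29 and 8.09 and 7.14 in Colo205, so both derivatives lay below both parents. The differences were -0.67 and -0.95, and the other probe set gave -0.54 and -1.06. TJP1 (ZO-1), the related scaffold, had opposite signs in the lines. It read 11.78 and 12.16 in HT29 and 11.35 and 10.97 in Colo205, with a second probe set at 0.32 and -0.26. CGN, cingulin, which links the plaque to actomyosin, was higher by 0.29 and 0.27, each within 1 SD of the scatter between probe sets.

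For OCLN and MARVELD2 the probe sets did not all lie on the same side of 0. OCLN was at 0.21 in HT29 and 0.07 in Colo205 by its brightest probe set, while its 4 probe sets ran from -0.53 to 0.21 and from -0.55 to 0.07. MARVELD2 (tricellulin), which seals the corners where several cells meet, was at 0.10 and 0.02, with a second probe set at -0.23 and -0.21. MARVELD3 was at -0.49 and -0.08, and all 3 of its probe sets were lower in HT29, while in Colo205 they ran from -0.36 to 0.41.

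**Figure D2:**
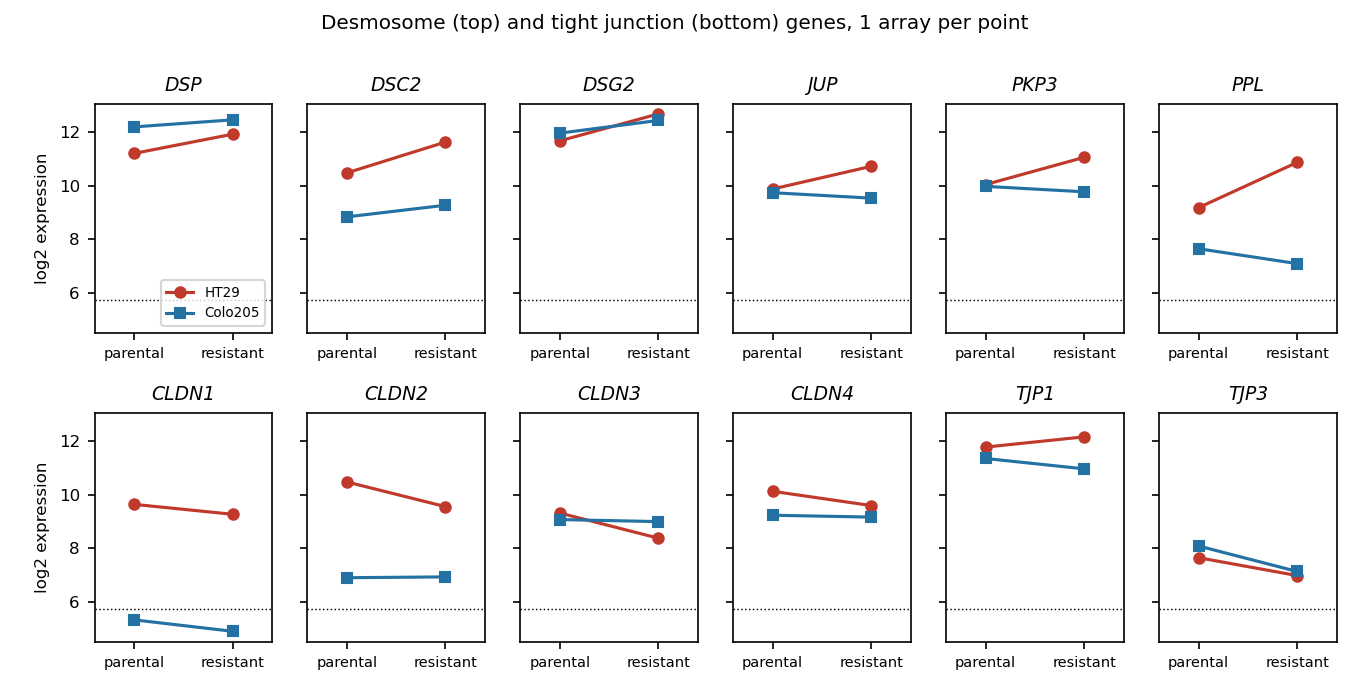
Log2 expression of 6 of the 8 desmosome genes (top row, without PKP2 and EVPL) and 6 tight junction genes (bottom row) on the parental and the resistant array of HT29 (circles) and Colo205 (squares), with 1 array per point and the filter value of 5.73 dotted; levels of different genes are not comparable. The 6 desmosome genes drawn are higher in resistant HT29, from 9.18 to 10.86 for PPL, while PKP2, not drawn, is lower. TJP3 slopes downward in both lines. Of the 12 measured tight junction genes, 7 are lower and 5 higher in resistant HT29. CLDN7, OCLN, CGN and MARVELD2, higher there, are not drawn, nor are CLDN12 and MARVELD3, lower there.

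Adherens junction genes showed small differences. CDH1, E-cadherin, read 12.66 in HT29 and 13.05 in HT29RC, and 13.22 and 12.99 in Colo205. By this brighter probe set the 4 arrays lay within 0.56 of each other in a narrow high band, with differences of 0.39 and -0.22. A second, dimmer probe set read between 5.75 and 6.26, near the filter value. It differed by 0.10 in HT29 and -0.51 in Colo205. CTNNA1, alpha-catenin, which couples the complex to actin, was higher by 0.35 and 0.28, and all 5 of its probe sets were higher in both lines, between 0.22 and 0.60 in HT29 and between 0.21 and 0.35 in Colo205. EPCAM, the epithelial adhesion molecule, was at -0.18 and 0.05.

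All 4 polarity genes were slightly higher in both derivatives. PARD3, the scaffold of the PAR complex at the apical border, read 10.01 and 10.77 in HT29 and 8.64 and 9.09 in Colo205. Its differences were 0.76 and 0.45, and its 4 probe sets lay between 0.33 and 0.76 in HT29 and between -0.00 and 0.57 in Colo205. CRB3, the apical Crumbs protein, was at 0.12 and 0.08, RAB25, a GTPase of apical recycling, at 0.30 and 0.19, and CDS1, which makes CDP-diacylglycerol for phosphoinositide synthesis, at 0.15 and 0.30, with 1 probe set at -0.27 in HT29. Apart from PARD3, these differences were at or within the scatter of 0.30 between probe sets.

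Of the epithelial regulators, the 4 with a value lay on different sides of 0. OVOL1, a zinc finger repressor of mesenchymal genes, read 8.97 and 9.85 in HT29 and 9.35 and 9.08 in Colo205, differences of 0.88 and -0.27, with a second probe set at 0.34 and -0.38. ELF3, an epithelial ETS factor, read 9.99 and 9.29 in HT29 and 9.99 and 10.06 in Colo205. Its 3 probe sets were all lower in HT29, from -0.70 to -0.46, and all within 0.07 of the parent in Colo205. GRHL2, a grainyhead-like activator of CDH1 and claudin genes, was at 0.16 and -0.54, and ESRP1, a splicing regulator of the epithelial state, at -0.35 and -0.27. ST14 (matriptase) was at 0.01 and 0.19, and its inhibitor SPINT1 at 0.35 and -0.09.

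ZEB1, VIM and SNAI2, the mesenchymal genes of the 39, read low on all 4 arrays. ZEB1 read 5.40 and 5.57 in HT29 and 5.38 and 5.79 in Colo205, and reached the filter value on the resistant Colo205 array alone. VIM, the intermediate filament protein vimentin, read 5.75 and 5.53 in HT29 and 5.50 and 5.67 in Colo205. SNAI2 lay between 3.37 and 3.67. At such readings signal and background cannot be told apart here, and no size is given to their differences. Of 18 further mesenchymal genes, 9 stayed below the filter value on every array, CDH2 (N-cadherin), ZEB2 and TWIST1 among them. The other 9 reached it, and 2 of them, chosen after their values were seen, read far above it on all 4 arrays: S100A4, a calcium-binding protein, between 12.37 and 14.00, and TGFBI, a matrix protein, between 9.72 and 12.30. TNC, described below, read 9.52 and 10.87 in the derivatives.

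Across both lines, no gene passed the adjusted threshold for resistance in limma with the cell line as a block, or 0% of 13651 genes, and 928 genes had an unadjusted p under 0.05. The smallest adjusted p was 0.706. Among the 35 measured junction, polarity and regulator genes 4 had such a p, beside 928 of all 13651 genes. DSC2, DSG2 and PARD3 were higher, as were 372 of the 928, and TJP3 was lower, as were 556. DSC2 had a mean difference of 0.79 ± 0.24 (SE, 2 pairs), DSG2 of 0.74 ± 0.20, PARD3 of 0.61 ± 0.17 and TJP3 of -0.81 ± 0.17, each with limma adjusted p = 0.706. For each of the 4, both lines lay on the same side of 0, which an unadjusted p under 0.05 in this fit requires. That agreement therefore adds no support. For PPL, at 0.57 ± 0.62, and PKP3, at 0.41 ± 0.36, the lines lay on opposite sides of 0 and the mean describes neither. Whether an effect of resistance differed between the lines was not tested, since the 4 arrays leave no spread for it.

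**Figure D3:**
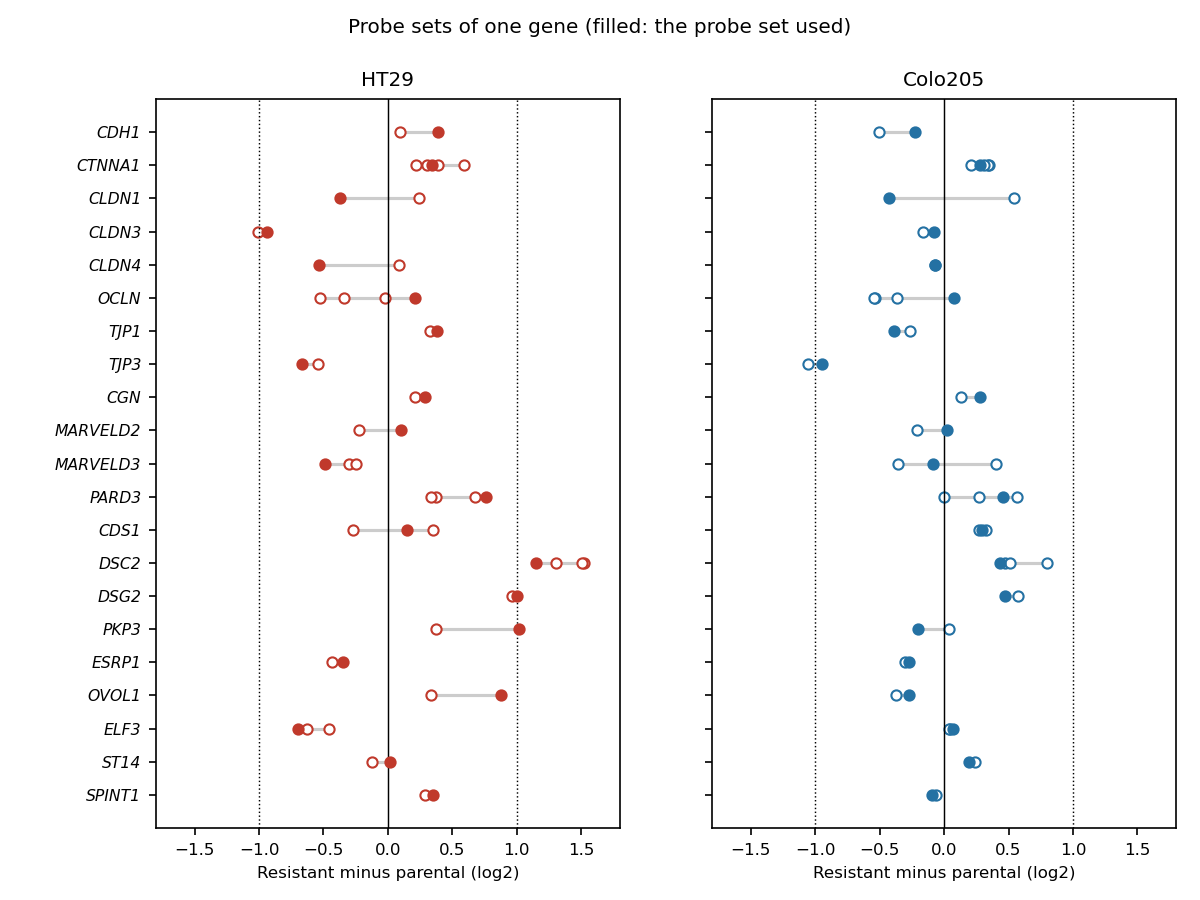
Resistant minus parental log2 difference of every probe set past the filter, for the 21 genes of the list with more than 1, in HT29 (left) and Colo205 (right); filled points are the probe sets used. All 4 DSC2 probe sets lie to the right of 0 in both lines and both TJP3 probe sets to the left, while those of CLDN1 and OCLN lie on both sides.

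More genes were called between the lines than for resistance. In the same limma fit, 849 genes were called as higher in HT29 and 1221 as higher in Colo205, or 6.22% and 8.94% of genes. Each line was read here from a parent and its own derivative, not from independent cultures. The SE, intervals and p-values between the lines thus do not measure the spread between cultures of a line. Of the 35 measured genes of the list, 6 were called as higher in HT29 (CLDN1, CLDN2, DSC2, CDS1, PARD3 and PKP2) and 2 as higher in Colo205 (EVPL and ESRP1). For 22 of the 35 the HT29 arrays did not overlap the Colo205 arrays, against 63.4% of all genes, so this count is near the background.

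CLDN1 and CLDN2 had the largest line differences of the 35 genes by the probe sets used, and the other 4 claudins were not called. CLDN1, a barrier claudin, read 9.64 and 9.27 in HT29 and HT29RC but 5.33 and 4.90 in Colo205, below the filter value. With the mean of both HT29 arrays set against that value, the brighter probe set was at least 13.3-fold higher in HT29, with a fitted difference of 4.34 ± 0.15 on the log2 scale (limma adjusted p = 0.00752). With its probe sets averaged the difference was 2.95 (limma adjusted p = 0.0112), since the dimmer one differed less, by 1.71 between the parents. CLDN2 was higher in HT29 by 3.10 ± 0.29 (adjusted p = 0.0186), or 8.57-fold. CLDN3, CLDN4, CLDN7 and CLDN12 had differences between -0.65 and 0.66.

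Desmosome and polarity genes showed line differences of their own. DSC2 was higher in HT29 by 2.0 ± 0.24 (adjusted p = 0.0264), although with the mean over its 4 probe sets the difference was 1.35 and it no longer passed. DSG2, the other desmosomal cadherin, was at -0.02 ± 0.20, with a 95% interval from -0.62 to 0.58. PPL and EVPL, the plakin partners, lay on opposite sides. PPL was higher in HT29 by 2.66 with an interval from 0.86 to 4.46 (limma adjusted p = 0.0744). That is a mean of unlike pairs: the parents differed by 1.53, and the derivatives read 10.86 in HT29RC and 7.09 in Colo205RC. EVPL was higher in Colo205, at -1.31 ± 0.19 (limma adjusted p = 0.0337). CDS1 was higher in HT29 by 1.71 ± 0.15 (adjusted p = 0.0176), PARD3 by 1.53 ± 0.17 (adjusted p = 0.0236) and PKP2 by 0.95 ± 0.15 (adjusted p = 0.0404). ESRP1 was higher in Colo205, at -1.14 ± 0.15 (adjusted p = 0.0298). CDH1, with an interval from -0.90 to 0.40, and EPCAM, from -0.57 to 0.37, did not pass.

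**Figure D4:**
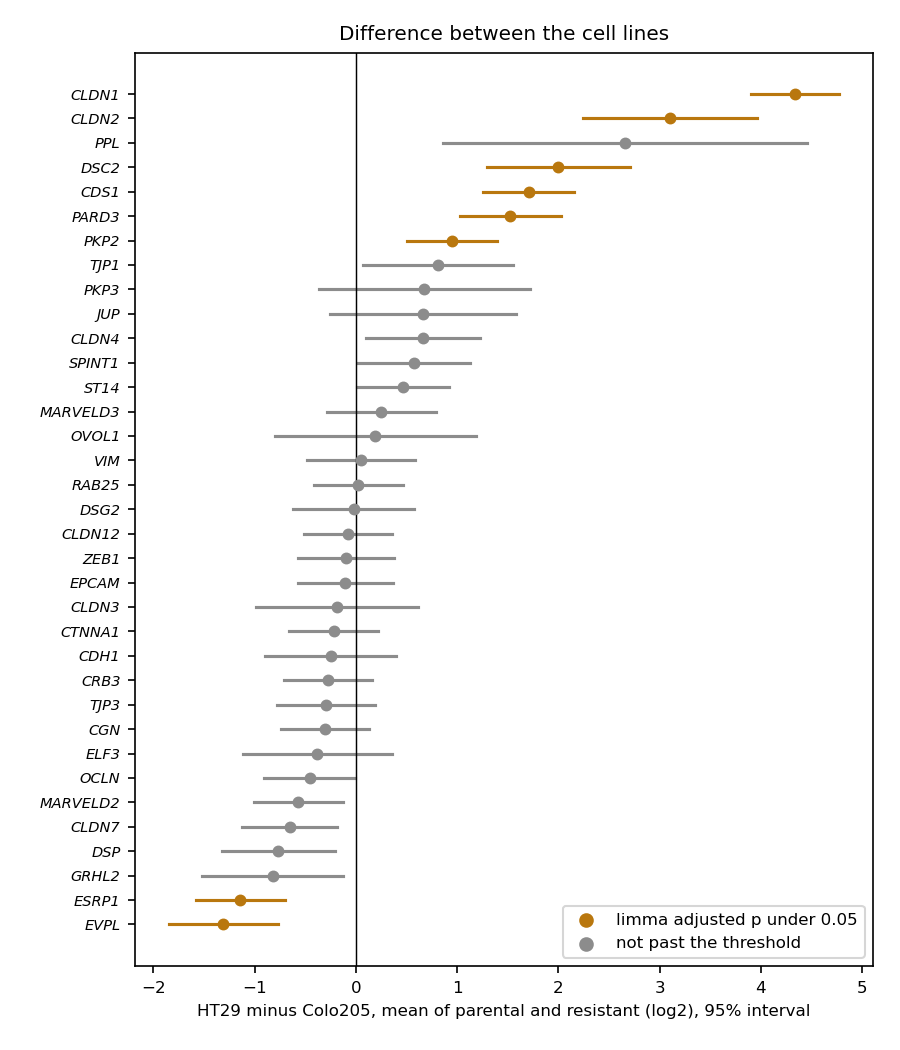
HT29 minus Colo205 on the log2 scale for the 35 measured genes, as the mean over the parental and the resistant pair with limma 95% intervals, ordered by size; coloured points passed an adjusted p of 0.05. CLDN1 at 4.34 and CLDN2 at 3.10 lie farthest to the right, and ESRP1 and EVPL pass on the Colo205 side.

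Further junction, polarity and transition genes were taken from lists of 124 genes, of which 118 had a value and 92 reached the filter value. Of these 92, 9 were 2-fold or more higher and 1 lower in resistant HT29, against 3.42% and 1.72% of all genes. In resistant Colo205 1 was higher and 1 lower, against 0.908% and 2.51% of all genes. No gene of the lists passed the adjusted threshold for resistance. Other desmosome and keratin filament genes had a median of 0.58 in HT29 over 9 genes, with 8 of 9 higher, and of 0.06 in Colo205. KRT20, a keratin of differentiated colonocytes, read 12.69 and 14.28 in HT29 but 4.79 and 3.95 in Colo205. The desmogleins and desmocollins of stratified epithelium (DSG1, DSG3, DSG4, DSC1 and DSC3) stayed below the filter value on every array.

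Other adherens junction genes had medians of 0.37 in HT29 and 0.08 in Colo205 over 17 genes. LMO7, which binds the nectin-afadin complex, was higher by 1.36 in HT29 and 0.49 in Colo205, where its 2 probe sets did not lie on the same side of 0. CDH3, P-cadherin, was at 1.22 and -0.33. NECTIN3, an adhesion receptor of adherens junctions, was at -1.07 in HT29, from 9.54 to 8.47, and read 3.34 and 3.42 in Colo205. Other polarity genes had medians of 0.08 and -0.01 over 26 genes. EZR, ezrin, which ties the apical membrane to actin, read 11.10 and 12.45 in HT29 and 10.95 and 11.38 in Colo205, with all 5 probe sets higher in both lines.

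Other tight junction genes had medians of 0.03 and 0.05 over 17 genes. CXADR, an adhesion receptor at tight junctions, was the 1 gene of the lists 2-fold or more lower in Colo205, from 8.97 to 7.03. Its probe sets did not all point the same way, and it was named after its value was seen. CDX2, the intestinal homeobox factor, was at 1.35 and 0.45, from parental readings of 5.17 and 5.66 below the filter value. TNC, a matrix protein counted here with mesenchymal genes, was the 1 gene of these 92 past 2-fold in both lines, at 3.46 and 2.91.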

How the data were processed

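The authors deposited 1 table of log2 expression values for 54675 probe sets. That it is on the log2 scale follows from its range, 2.51 to 14.88. MAS5 and RMA are both named, per the submitters' processing notes, with no statement of which made these values. The platform annotation gave 41091 probe sets a single gene, and the others were not used. A gene was read from its brightest probe set by mean, and left out if its highest value lay below 5.73.

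Resistance was tested with limma 3.58.1 (R 4.3.3), with the line as a blocking term. The line pairs the arrays because each derivative came from its own parent. The same additive fit compared the lines. It has 1 residual degree of freedom and 2.54 from all genes, and gives the SE and 95% intervals. P-values were adjusted over 13651 genes by the Benjamini-Hochberg method at 0.05. The fit was also run on simulated data with an assumed noise and the same added difference in both lines. These settings need not hold for the 4 arrays, and that run is not used as support.

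The genes, lists and comparisons were chosen with earlier results of these data known. All listed genes are named. Of the further lists, the rule named up to 6 genes in each direction and line that were 2-fold or more apart with all probe sets on the same side. Motif positions count from the start site. Alternatives changed the block, the prior's trend, the filter, the scaling between arrays, the choice of probe set and the line left out.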

Additional observations from a re-analysis of the deposited data

Results flagged for a closer look

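PPL and TJP1 differed in opposite directions in the lines, each by more than the scatter of 0.30 between probe sets of one gene, which leaves out the spread between cultures. For PPL the resistant minus parental difference was 1.69 in HT29 and -0.56 in Colo205, 2.24 apart on the log2 scale. For TJP1 it was 0.38 and -0.39, 0.77 apart, and its second probe set gave 0.32 and -0.26. With 1 array for each state, neither difference between the lines was tested.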

How the results depend on the processing

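The number of listed genes 2-fold or more higher in resistant HT29 was 4. It was 2 with arrays centred on their medians and 2 when the probe sets of a gene were averaged, in both cases without PKP3 and DSG2. With averaged probe sets 1 gene, TJP3, was 2-fold or more lower in Colo205, where 0 were before. No other count of genes past 2-fold, group median or number of genes called between the lines moved by more than its limit (1.5 times for counts, the probe set scatter for medians). Counts of genes above or below 0 were not among these results. With averaged probe sets 6 differences within a line moved by more than that scatter, those of CLDN1, CLDN4, OCLN and PKP3 in HT29 and of CLDN1 and OCLN in Colo205, and DSC2 was no longer called between the lines. With a filter at 7, PPL was called as higher in HT29 than in Colo205. Resistance gave 0 called genes under each of the 8 alternative fits, also with no replicate block, a fit that was not run between the lines since it holds no line term. The genes called between the lines ranged from 1578 to 2379. Leaving out either line leaves a single pair without a test, whose differences are given above. The number of arrays limits the precision. The median of the desmosome genes in Colo205, 0.03, was -0.01 with arrays centred.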
